A study of Mus musculus with 16 samples.

Results

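The genes described are 10 members of the epidermal growth factor (EGF) receptor pathway: the receptor Egfr, its ligands Hbegf, Areg and Ereg, the receptor inhibitor Errfi1, the dual-specificity phosphatases Dusp4 and Dusp6, and the Sprouty genes Spry1, Spry2 and Spry4. They are 10 of the 54532 genes listed for each library, and were chosen by name. The list was chosen with earlier results of these libraries known, and which measured values led to the choice is not recorded. The fold changes, calls and adjusted p-values below therefore describe the 10 genes and support no further statement.

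The EGF receptor is a membrane tyrosine kinase. Its ligands are made as membrane-bound precursors that metalloproteinases of the ADAM family release from the cell surface. The bound receptor passes its signal through adaptors, RAS and RAF to the kinases MEK and ERK, and ERK induces early transcription factors together with genes that restrain the pathway. Those restraining genes act at different steps: the Errfi1 protein binds and blocks the receptor kinase, Sprouty proteins act between the receptor and RAF, DUSP4 removes phosphate from ERK in the nucleus and DUSP6 does so in the cytoplasm. In fat, EGF receptor signalling is known for its effects on the growth and differentiation of precursor cells.

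The source of the RNA was gonadal white fat, taken from female mice of the inbred strain C57BL/6. Stress mice had been taken from the dam daily from postnatal day 2 to postnatal day 16 and weaned on day 17, and control mice were left undisturbed and weaned on day 21. Collagenase digestion, centrifugation and filtration parted the mature adipocyte fraction from the stromal vascular fraction, and magnetic sorting further isolated adipocyte lineage cells. Of the 16 bulk libraries, 14 came from mice on a high-fat diet: 8 of preadipocytes, 4 per treatment, and 6 of mature adipocytes, 3 per treatment. The remaining 2, of preadipocytes on a low-fat diet, were 1 per treatment. The labels give neither the ages at collection nor the sort antibodies, nor whether replicate libraries stem from different animals, so that a p-value here measures the spread between libraries, which may be technical. No low-fat mature adipocyte group was analysed here.

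Library totals ran from 14182130 to 23368821 counts. All 16 mature adipocyte markers were higher in the mature fraction (median log2 fold change 6.20) and all 16 progenitor markers were lower (median -3.98), as the labels have it. Control high-fat preadipocyte libraries 1 and 3 differed at 7.01% of genes, against 43.0% to 79.0% in the other 17 same-group pairs, and entered as 1 sample, which leaves n = 3 for that group. They also stood apart in urothelial and epithelial markers, which summed to 1506 and 1482 CPM (a count divided by the library total, on a common scale) over 12 genes in these libraries and to between 6.71 and 92.7 CPM in the other high-fat preadipocyte libraries. Control mature adipocyte libraries 1 and 3 had fewer genes with 1 to 5 counts for each gene with 6 to 15 counts than the other 14 libraries (1.15 and 0.637, against 1.55 to 2.23), and sums of 272 and 139 CPM for the same 12 markers, against 8.31 to 11.2 CPM in the other 4 mature adipocyte libraries. Stress preadipocyte libraries 3 and 4 had the highest summed macrophage markers of all preadipocyte libraries, 8334 and 9500.0 CPM.

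Levels between genes were compared as FPKM, which divides out how long a gene is and how deeply a library was read. In the 8 high-fat preadipocyte libraries Errfi1 had the highest level, with a median of 264 FPKM (156 to 351). Spry2 followed at 75.7 FPKM (30.4 to 119), then Egfr at 30.8 FPKM (15.9 to 45.3). Hbegf, Spry1, Dusp6, Dusp4, Spry4, Areg and Ereg had medians of 17.6, 16.3, 12.8, 7.22, 6.20, 4.96 and 2.16 FPKM in that order. The range of Errfi1 lay above that of Spry2, and the ranges of all other neighbours in the order overlapped. In the 6 mature adipocyte libraries Errfi1 was again first, at 32.7 FPKM (18.02 to 88.9), and Dusp4 was next at 22.6 FPKM (11.999 to 32.3). Spry2, Dusp6, Spry4, Hbegf, Spry1 and Egfr had medians of 14.9, 11.8, 10.3, 8.11, 8.02 and 4.27 FPKM. Areg, at 1.67 FPKM (0.185 to 3.29), lay below the whole range of Egfr (3.34 to 6.01 FPKM), the one gap between neighbours in this fraction, and Ereg was last at 0.153 FPKM. By median, inhibitor genes held the first 5 places in mature adipocytes, and Spry1, also an inhibitor gene, held place 7. The range of Spry4 at place 5 (8.12 to 12.8 FPKM) lay within that of the ligand Hbegf (3.76 to 17.5 FPKM). The receptor held place 3 in preadipocytes and place 8 in mature adipocytes. Genes that overlap one of the 10 had at most 1.84 CPM in any library, so that shared reads could add little.

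**Figure D1:**
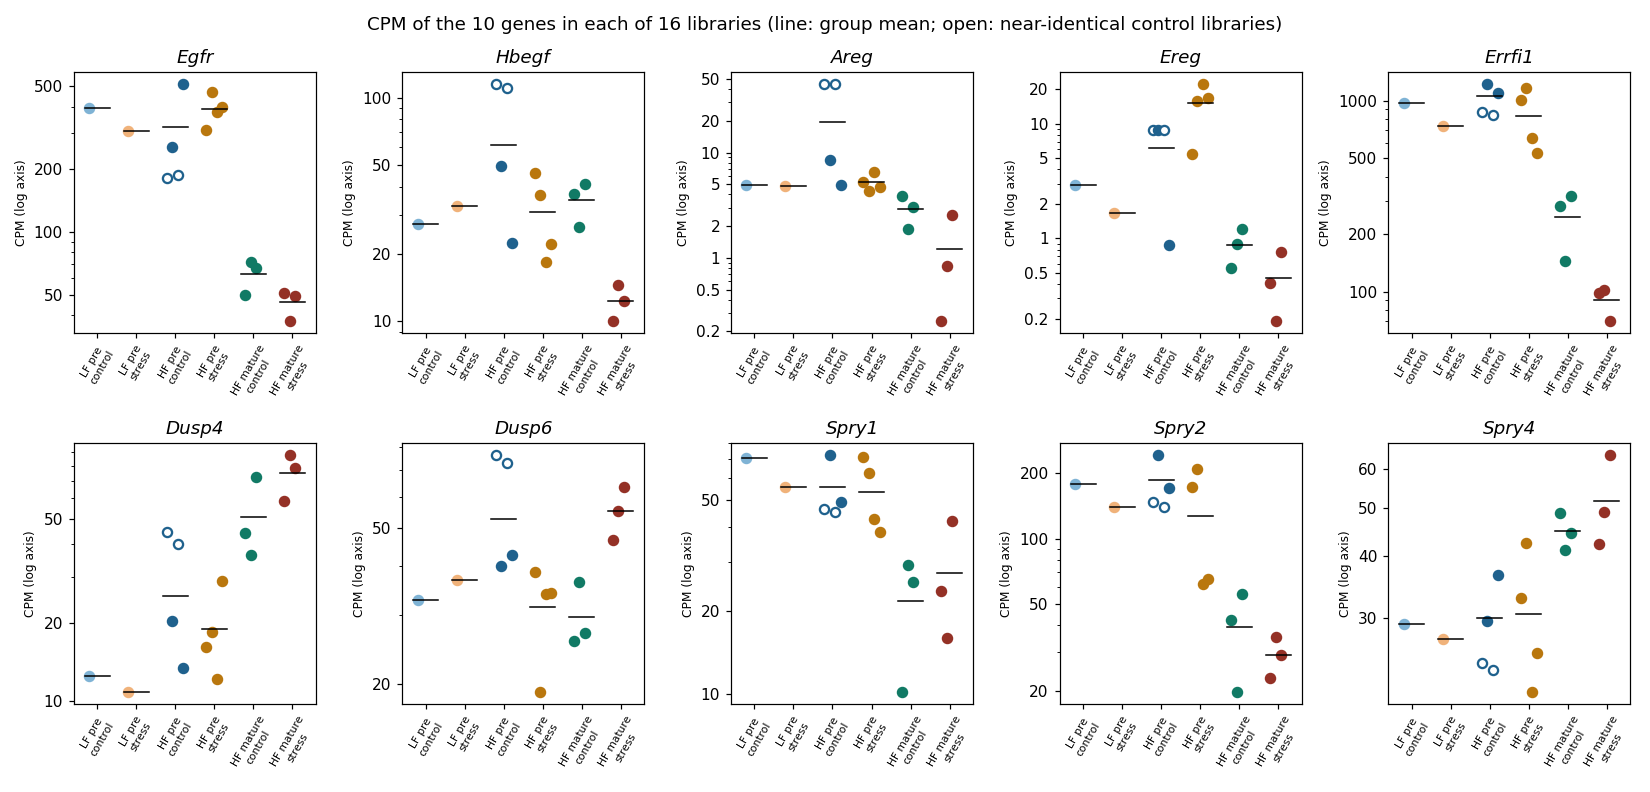
Levels in CPM (log axis) of each of the 10 genes in the 16 libraries, by diet (LF low-fat, HF high-fat), fraction (pre, preadipocyte) and early life treatment. Points are libraries, lines are group means and open circles are the near-identical control libraries 1 and 3, which stand highest among preadipocytes for Areg, Hbegf, Dusp4 and Dusp6.

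Promoter windows from RefSeq (GRCm38.p6), from 250 bases before to 50 after a start site, matched 6 of the 10 genes in 7 windows: Areg, Dusp6, Egfr, Spry1 and Spry2 with 1 each and Errfi1 with 2. The start site was the deposited gene start for 5 of the 7 windows, but for neither Errfi1 window. The downstream Errfi1 window lies within the deposited gene. Both strands were searched for the cyclic AMP response element TGACGTCA, for its core TGACG, which lies within it, for the AP-1 site TGANTCA, the ETS site CCGGAAGT, the EGR site GCGTGGGCG and, by name, the CArG box of serum response factor. The full element was found in the Areg window at positions -61 to -54 and in the downstream Errfi1 window at positions -51 to -44, counted from the start site. It occurred in 1.79% of all 32851 windows of this length. The core occurred once more in the Areg window, outside the full element. Windows with the core anywhere, also within the full element, were 20.8% of all. The AP-1, ETS, EGR and CArG letters were in none of the 7 windows, and in 7.81%, 3.89%, 0.612% and 1.63% of all windows. The 2 windows that hold the full element are printed with it in capitals, because these 2 of the 7 hold it. Egfr, Spry1 and Spry2, called lower in mature adipocytes like Areg and Errfi1, have no match to the full element in their windows. A match describes the letters and is not evidence of binding. Areg lies at chr5:91139349-91139648 (plus strand, 59.3% GC) and Errfi1 at chr4:150854820-150855119 (plus strand, 66.7% GC), against a median of 52.7% GC over all windows.
Areg promoter: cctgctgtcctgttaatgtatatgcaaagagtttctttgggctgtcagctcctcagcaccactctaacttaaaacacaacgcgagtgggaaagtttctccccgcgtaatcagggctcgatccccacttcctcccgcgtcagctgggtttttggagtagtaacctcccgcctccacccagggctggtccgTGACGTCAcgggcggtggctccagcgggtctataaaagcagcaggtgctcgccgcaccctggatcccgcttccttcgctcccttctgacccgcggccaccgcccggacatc
Errfi1 promoter: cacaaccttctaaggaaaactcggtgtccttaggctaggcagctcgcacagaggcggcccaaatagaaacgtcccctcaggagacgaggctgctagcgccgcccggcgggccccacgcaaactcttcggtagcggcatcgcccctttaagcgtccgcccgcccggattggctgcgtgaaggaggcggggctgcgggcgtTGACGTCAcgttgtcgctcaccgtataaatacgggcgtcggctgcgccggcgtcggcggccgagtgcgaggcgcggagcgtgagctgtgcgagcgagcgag

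The comparison of fractions asked how the pathway differed between mature adipocytes and preadipocytes on the high-fat diet. Of the 10 genes, 7 were lower in mature adipocytes, 2 were higher and 1 was not called by edgeR's quasi-likelihood test at a Benjamini-Hochberg adjusted p under 0.05. Of all 16101 genes tested, 34.6% were lower and 26.9% were higher by the same rule. The median log2 fold change of the 10 genes was -1.74, against -0.22 over all genes tested. In bulk RNA, fewer cells of a type and less RNA per cell cannot be told apart. The fractions also differed in the markers of further cells. Endothelial markers were higher in mature adipocytes for 12 of 14 genes tested (median log2 fold change 2.45) and mural markers for 5 of 10 (median 1.36). Mesothelial markers were lower for 10 of 10 (median -3.37), T, NK and innate lymphoid markers for 11 of 14 (median -2.40), B cell markers for 7 of 10 (median -2.18) and urothelial and epithelial markers for 5 of 7 (median -2.44). Of the macrophage markers 2 of 16 were lower, and of the neutrophil and mast cell markers 3 of 8. The part of these cells in the levels of the 10 genes was not tested.

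Egfr, the receptor (ENSMUSG00000020122, chromosome 11, 16752203 to 16918158, plus strand, GRCm38 as in the deposited tables), was lower in mature adipocytes. In high-fat preadipocytes its level was 181, 255, 187 and 515 CPM in control libraries 1 to 4 and 309.7, 469, 378 and 399 CPM in stress libraries 1 to 4. In mature adipocytes it was 50.2, 72.1 and 67.5 CPM in control and 51.1, 37.6 and 49.5 CPM in stress libraries. The lowest preadipocyte value was above the highest mature adipocyte value. In mature adipocytes the fitted level was 6.98-fold lower (log2 fold change -2.80 ± 0.25 SE, edgeR adjusted p = 4.56e-07).

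The ligands were lower too, each with a pattern of its own. Areg, which encodes amphiregulin (ENSMUSG00000029378, chromosome 5, 91139599 to 91148432, plus strand), had 44.7, 8.47, 45.0 and 4.87 CPM in control and 5.30, 4.33, 6.56 and 4.69 CPM in stress preadipocytes. In mature adipocytes it had 3.90, 1.89 and 3.01 CPM in control and 0.253, 0.829 and 2.57 CPM in stress libraries. All mature adipocyte values lay below all preadipocyte values, and the 2 highest values were those of the near-identical libraries. The fold change was -2.49 ± 0.57 on the log2 scale (edgeR adjusted p = 0.00153), and -1.79 ± 0.50 without those libraries (adjusted p = 0.00662).

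Ereg, which encodes epiregulin (ENSMUSG00000029377, chromosome 5, 91074622 to 91093646, plus strand, on the same chromosome as Areg), had the steepest difference and the lowest level. It had 8.88, 8.79, 8.81 and 0.885 CPM in control and 5.43, 15.7, 22.3 and 16.7 CPM in stress preadipocytes. In mature adipocytes it had 0.557, 0.888 and 1.204 CPM in control and 0.404, 0.191 and 0.755 CPM in stress libraries, from 3 to 16 reads a library. Control preadipocyte library 4 fell within the mature adipocyte range. The fitted level was 16.5-fold lower (log2 fold change -4.04 ± 0.66, edgeR adjusted p = 0.000106).

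Hbegf, which encodes heparin-binding EGF-like growth factor (ENSMUSG00000024486, chromosome 18, 36504929 to 36515805, minus strand), differed least among the ligands. Its preadipocyte values were 116, 49.4, 110.1 and 22.4 CPM in control and 46.3, 36.7, 18.5 and 22.2 CPM in stress libraries. Its mature adipocyte values were 37.1, 26.4 and 41.2 CPM in control and 10.1, 14.5 and 12.3 CPM in stress libraries. Control preadipocyte library 4 and stress preadipocyte libraries 2, 3 and 4 lay within the mature adipocyte range. The fold change was -1.16 ± 0.34 on the log2 scale (edgeR adjusted p = 0.00764).

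Errfi1, the feedback inhibitor also called MIG6 (ENSMUSG00000028967, chromosome 4, 150853919 to 150868892, plus strand), differed by nearly as much as Egfr, whose product it inhibits. It had 876, 1226, 839.5 and 1097 CPM in control and 1013, 1158, 635 and 535 CPM in stress preadipocytes. In mature adipocytes it had 280.1, 146 and 316 CPM in control and 98.4, 102 and 70.5 CPM in stress libraries. The fractions did not overlap, and in mature adipocytes the fitted level was 6.72-fold lower (log2 fold change -2.75 ± 0.29, edgeR adjusted p = 2.08e-06).

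The 3 Sprouty genes did not move together. Spry2 (ENSMUSG00000022114, chromosome 14, 105891947 to 105896819, minus strand) had 147, 243, 140.4 and 171 CPM in control and 172, 209, 61.9 and 65.03 CPM in stress preadipocytes. It had 42.4, 19.7 and 55.8 CPM in control and 22.9, 35.1 and 29.3 CPM in stress mature adipocytes, with no overlap between fractions (log2 fold change -2.23 ± 0.32, edgeR adjusted p = 3.41e-05). Stress preadipocyte libraries 3 and 4 were the low ones for Spry2 and for Errfi1.

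Spry1 (ENSMUSG00000037211, chromosome 3, 37639947 to 37644598, plus strand) had 46.3, 72.6, 45.2 and 49.1 CPM in control and 71.2, 62.4, 42.6 and 38.4 CPM in stress preadipocytes. It had 10.2, 29.2 and 25.4 CPM in control and 23.6, 16.0 and 42.2 CPM in stress mature adipocytes. Stress mature adipocyte library 3 reached into the preadipocyte range, and the log2 fold change was -1.24 ± 0.27 (edgeR adjusted p = 0.00111).

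Spry4 (ENSMUSG00000024427, chromosome 18, 38586268 to 38601268, minus strand) went the other way. It had 24.3, 29.5, 23.5 and 36.5 CPM in control and 32.9, 42.6, 21.2 and 25.5 CPM in stress preadipocytes. It had 48.9, 41.2 and 44.45 CPM in control and 42.2, 49.0 and 64.0 CPM in stress mature adipocytes. The groups overlapped only through stress preadipocyte library 2, and the level was 1.53-fold higher in mature adipocytes (log2 fold change 0.61 ± 0.17, edgeR adjusted p = 0.00687).

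The 2 phosphatase genes also differed from each other. Dusp4 (ENSMUSG00000031530, chromosome 8, 34807297 to 34819894, plus strand) had 44.6, 20.4, 40.2 and 13.4 CPM in control and 16.2, 18.5, 12.2 and 29.0 CPM in stress preadipocytes. It had 44.0, 36.3 and 72.4 CPM in control and 58.6, 88.0 and 78.6 CPM in stress mature adipocytes. Only the near-identical libraries reached the mature adipocyte range, and the level was 2.72-fold higher in mature adipocytes (log2 fold change 1.44 ± 0.32, edgeR adjusted p = 0.00120).

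Dusp6 (ENSMUSG00000019960, chromosome 10, 99263231 to 99267489, plus strand) had 76.5, 39.99, 73.2 and 42.7 CPM in control and 38.7, 19.1, 33.8 and 34.1 CPM in stress preadipocytes. It had 25.7, 36.3 and 26.997 CPM in control and 46.6, 55.1 and 63.4 CPM in stress mature adipocytes. The fraction difference over both treatments was -0.02 ± 0.31 on the log2 scale (edgeR adjusted p = 0.950), with the ends of the range in different groups: the lowest values among mature adipocytes were those of controls and the lowest among preadipocytes those of stress libraries.

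Counted without a model, the fractions did not overlap for 4 of the 10 genes, all lower in mature adipocytes: Egfr, Areg, Errfi1 and Spry2. None was higher without overlap. Over all genes tested, 19.9% were lower and 19.4% higher without overlap in CPM. In FPKM Spry1 joined the 4.

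Fewer genes were called in the control libraries alone than in the stress libraries alone, over the whole table as among the 10. With the near-identical pair as 1 sample, the control fit had 3 preadipocyte samples and the stress fit had 4. Pairs of control mature adipocyte libraries differed at 77.1% to 79.0% of genes, and pairs of stress ones at 65.9% to 71.3%. The part of either in the number called was not tested. In the stress libraries alone 8201 of all 16489 genes tested were called, and all 10 genes. Dusp6 was then higher in mature adipocytes (0.83 ± 0.28, edgeR adjusted p = 0.0361). In the control libraries alone 5998 of all 16315 genes tested were called, and 6 of the 10. Dusp4 (0.99, adjusted p = 0.126), Hbegf (-0.83, adjusted p = 0.249) and Spry4 (0.59, adjusted p = 0.124) kept their direction without passing, and Dusp6 was at -0.83 (adjusted p = 0.0798). Every fit that left out 1 library, or the near-identical pair together, called 9 of the 10 genes, 2 higher and 7 lower.

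Genes known to respond to tissue dissociation differed between the fractions as well. Of 22 immediate early and heat shock genes, 16 were lower and 1 was higher in mature adipocytes. Their mean log2 CPM was 8.86 to 9.91 in preadipocyte and 8.09 to 8.49 in mature adipocyte libraries. Their part in the lower Errfi1, Areg and Hbegf was not tested.

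The rest of the pathway was read from lists of genes by role. All 3 ErbB receptors that passed the filter on low counts were lower in mature adipocytes, Egfr among them. Erbb3, a co-receptor with a weak kinase of its own, had a log2 fold change of -2.25 ± 0.41, and Erbb2, the co-receptor without a ligand, of -1.19 ± 0.25. Erbb4 did not pass the filter.

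Of 9 EGF family ligands tested, 6 were lower and 1 was higher. The exception was Nrg4, a neuregulin known as a secreted factor of fat cells, which had 0.935 to 2.07 CPM in high-fat preadipocytes and 19.0 to 119 CPM in mature adipocytes (log2 fold change 5.15 ± 0.38, edgeR adjusted p = 8.75e-08). Tgfa, encoding transforming growth factor alpha, went from 2.47 to 16.0 CPM in preadipocytes to 0.354 to 2.24 CPM (log2 fold change -3.33 ± 0.47). Nrg1 and Nrg2, further neuregulin genes, had log2 fold changes of -2.55 ± 0.79 and -1.92 ± 0.62. Egf and Btc were not called, and Epgn and Nrg3 did not pass the filter.

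Among 6 genes of ligand shedding 3 were lower and none higher: Adam12 (-1.44 ± 0.28), Adam17, the main releasing enzyme of Areg, Ereg and Hbegf (-1.28 ± 0.30), and Adam9 (-0.76 ± 0.17). The adaptors and kinases that carry the signal were split, with 6 of 17 higher and 5 lower. Hras, a RAS gene, was higher (1.88 ± 0.24) and so was Map2k2, encoding MEK2 (1.26 ± 0.19). Braf, a RAF kinase gene (-1.27 ± 0.20), and Ksr1, a scaffold of the cascade (-1.10 ± 0.24), were lower.

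Of 16 receptor and ERK inhibitor genes, 6 of them among the 10, 10 were lower and 3 higher. Spry3 was higher (1.56 ± 0.58) like Spry4 and Dusp4, and Spred3 (-1.47 ± 0.28), Spred1 (-1.35 ± 0.35) and the ERK phosphatase gene Dusp5 (-1.18 ± 0.29) were lower. Of 17 ERK target genes, 6 of which stand on the inhibitor list too, 14 were lower and 1, Spry4, was higher. Dusp4, which was higher (1.44 ± 0.32), is not on this target list. The transcription factor genes Etv4 (-3.30 ± 0.78), Myc (-2.42 ± 0.36), Fosl1 (-2.33 ± 0.54) and Egr3 (-2.15 ± 0.31) had the largest changes there outside the 10 genes. None of the genes on these 6 lists was called in any of the other comparisons below.

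**Figure D2:**
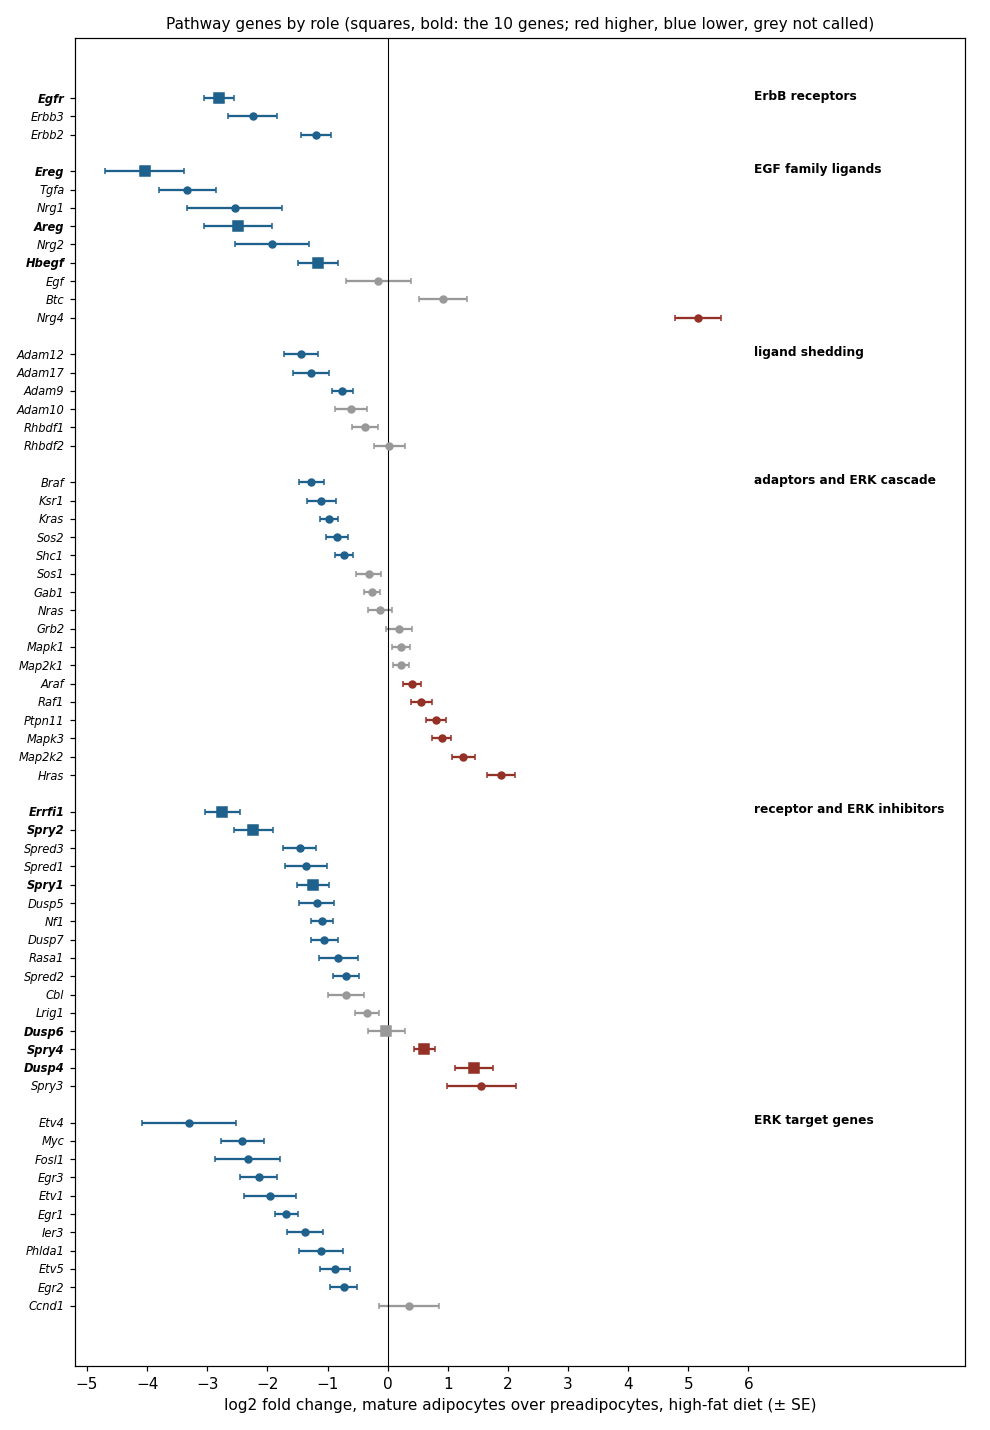
Log2 fold change, mature adipocytes over preadipocytes on the high-fat diet (horizontal axis, bars are ± SE), of the genes that passed the low-count filter, by role; a gene on several lists is drawn once. Squares in bold type are the 10 genes; receptors, most ligands and most ERK targets lie left of 0, the adaptors and kinases on both sides, and Nrg4 far to the right at 5.15.

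The comparison of early life treatment in high-fat preadipocytes called none of the 10 genes and none of the 17129 genes tested (edgeR, 0% called, 496 at an unadjusted p under 0.05, 4 by DESeq2). The median log2 fold change of the 10 genes was -0.38, against 0.02 over all genes. Areg was lowest in stress relative to control, at -1.89 ± 0.70, followed by Hbegf at -1.01 ± 0.53 and Dusp6 at -0.71 ± 0.33. Ereg was at 1.30 ± 0.77 and Egfr at 0.32 ± 0.33. Spry2, Dusp4, Errfi1, Spry1 and Spry4 were between -0.57 and 0.03, and adjusted p-values ran from 0.973 to 0.992.

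In CPM only Dusp6 had stress and control preadipocytes apart, all stress values (19.1 to 38.7 CPM) below all control values (39.99 to 76.5 CPM), with 1.79% of all genes lower and 1.73% higher in that way. The gap between the nearest libraries was small, 38.7 against 39.99 CPM.

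Much of the difference in ligands lay in the near-identical libraries. Their mean was 44.9 CPM for Areg against a median of 4.92 CPM in the other 8 preadipocyte libraries, low-fat ones included. It was 113 against 30.0 CPM for Hbegf, 42.4 against 14.8 CPM for Dusp4 and 74.9 against 35.5 CPM for Dusp6. For these 4 of the 10 genes the pair lay above every other preadipocyte library and at least 2-fold above their median, as it did for 3.30% of all genes compared. Egfr went the other way, at 184 CPM below the range of the others (255 to 515 CPM).

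Epithelial markers were high in the same libraries. Krt15, a keratin of basal epithelium, had a mean of 300.1 CPM in the pair and a median of 0.219 CPM in the other 8, Cldn4, a tight junction gene, 258 against 7.51 CPM, and Krt7, a keratin of simple epithelium and urothelium, 249.9 against 18.2 CPM. The pair lay above every other preadipocyte library for 11 of the 12 epithelial markers, 10 of 14 endothelial markers and 5 of 10 B cell markers. So it did for 3 of 10 mesothelial markers, the keratin genes Krt8, Krt18 and Krt19. Endothelial marker sums were 968 and 936 CPM in the pair and 236 to 860 CPM in the other 8. For 5 of 16 progenitor markers it lay below all others, among them the platelet-derived growth factor receptor gene Pdgfra, at 371 CPM against 469 to 1228 CPM. The low-fat stress library had the next highest preadipocyte sum of the 12 epithelial markers, 292 CPM, with Areg at 4.76 CPM. The part of epithelial, mesothelial, endothelial or B cells in the ligand levels was not tested. Without the pair the stress effects in preadipocytes were -0.31 ± 0.34 for Areg, -0.21 ± 0.43 for Hbegf, 0.21 ± 0.39 for Dusp4 and -0.35 ± 0.31 for Dusp6.

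**Figure D3:**
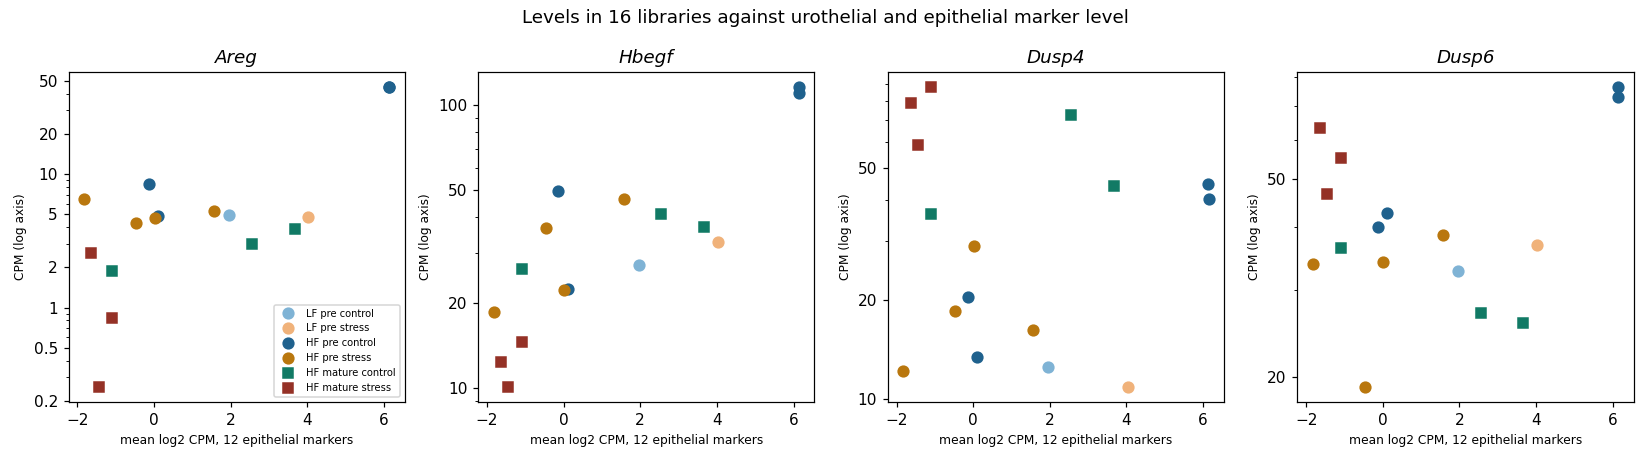
CPM of Areg, Hbegf, Dusp4 and Dusp6 (log axes) against the mean log2 CPM of 12 urothelial and epithelial markers in the 16 libraries; circles are preadipocyte and squares mature adipocyte libraries, coloured by diet and treatment. The 2 near-identical control libraries stand at the right edge, at 6.14, with the highest values of Areg, Hbegf and Dusp6.

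Ereg differed from the other ligands in which libraries were high. Its 3 highest values, 15.7, 22.3 and 16.7 CPM, were those of stress preadipocyte libraries 2, 3 and 4, and the control group ranged down to 0.885 CPM in library 4, so that the groups overlapped. Libraries 3 and 4 had the highest macrophage marker sums and library 2 a low one, 1859 CPM. Without libraries 3 and 4 the stress effect on Ereg was 0.68 on the log2 scale. The part of macrophages in the Ereg level was not tested.

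In high-fat mature adipocytes treatment likewise called none of the 10 genes and none of 14485 tested (edgeR, 0% called, 417 at an unadjusted p under 0.05, 9 by DESeq2). The median log2 fold change of the 10 genes was -0.47, against -0.01 over all genes. All 10 adjusted p-values were 0.9996. The largest differences were those of Hbegf, 2.89-fold lower in stress libraries (-1.53 ± 0.35), and Errfi1, 2.80-fold lower (-1.48 ± 0.38), with Dusp6 1.82-fold higher (0.87 ± 0.31).

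These 3 genes were the ones whose groups did not overlap. Hbegf was 26.4 to 41.2 CPM in control and 10.1 to 14.5 CPM in stress libraries, and Errfi1 was 146 to 316 CPM in control and 70.5 to 102 CPM in stress libraries. Dusp6 was 25.7 to 36.3 CPM in control and 46.6 to 63.4 CPM in stress libraries. Over all genes 2.93% were lower and 4.13% higher without overlap. In FPKM Egfr was also lower without overlap.

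Epithelial marker sums were higher in control mature adipocyte libraries 1 and 3 than in the stress libraries. Control library 2, whose sum of 8.54 CPM lay within the stress range, had more Hbegf (26.4 CPM) and Errfi1 (146 CPM) and less Dusp6 (36.3 CPM) than any stress library. It was the control library nearest to the stress group for each of the 3 genes. The part of epithelial cells in these differences was not tested. Over the fits that left out 1 library Hbegf ran from -1.71 to -1.39, Errfi1 from -1.76 to -1.26 and Dusp6 from 0.76 to 1.02. Adjusted p-values over all alternatives ran from 0.125 for Hbegf and from 0.0905 for Errfi1 up to values above 0.999.

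The remaining 7 genes overlapped between treatments in CPM. Areg was at -1.29 ± 0.88 and Ereg at -0.97 ± 1.01, both with at most 3.90 CPM in any mature adipocyte library. Dusp4 was at 0.53 ± 0.35, Egfr at -0.48 ± 0.31, Spry2 at -0.46 ± 0.41, Spry1 at 0.31 ± 0.48 and Spry4 at 0.18 ± 0.31.

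**Figure D4:**
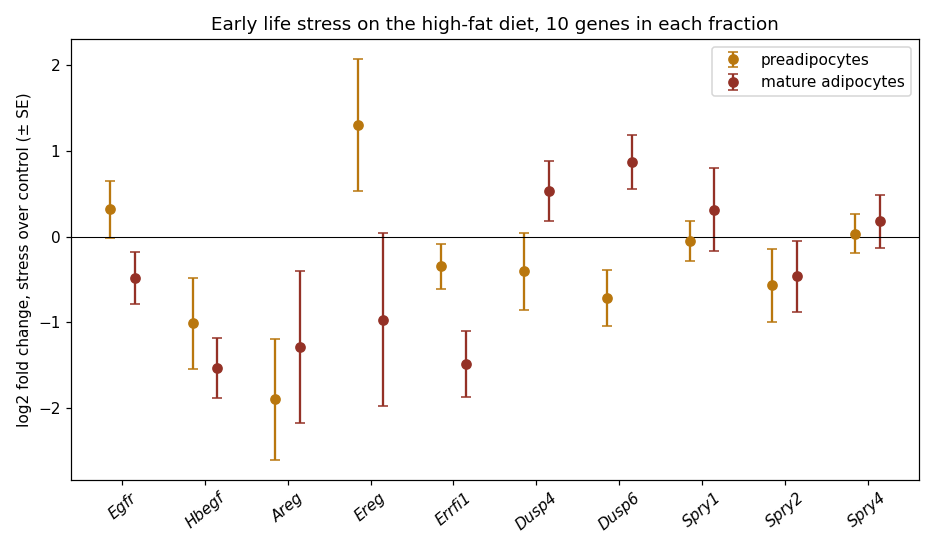
Log2 fold change, stress over control on the high-fat diet (vertical axis, bars are ± SE), for each of the 10 genes in preadipocytes and mature adipocytes. None passed the adjusted threshold; Dusp6 lies at -0.71 in preadipocytes and at 0.87 in mature adipocytes.

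Whether the treatment effect differed between fractions was tested as an interaction, mature adipocyte effect minus preadipocyte effect. None of the 10 genes and none of 17948 tested passed (edgeR, 0% called, 873 at an unadjusted p under 0.05, 3 by DESeq2). Dusp6 ranked first of the 10 by p, with a difference of 1.63 ± 0.41 on the log2 scale (edgeR adjusted p = 0.934). It was the only one of the 10 genes for which stress and control libraries did not overlap in either fraction and lay in opposite order, as did 24 of 13946 genes (0.172%). Without the near-identical libraries the difference was 1.28 ± 0.40.

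Errfi1 (-1.12 ± 0.48), Ereg (-2.21 ± 1.06), Dusp4 (0.98 ± 0.57) and Egfr (-0.76 ± 0.45) followed in that ranking, and Areg, Hbegf, Spry1, Spry4 and Spry2 lay between -0.52 and 0.63. Hbegf was lower in high-fat stress libraries of both fractions, at -1.01 in preadipocytes and -1.53 in mature adipocytes, without a test passing in either. Without the near-identical libraries the preadipocyte value was -0.21. The low-fat preadipocyte libraries went the other way, with 27.2 CPM in control and 32.8 CPM in stress.

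The low-fat diet had 1 library a treatment, all of preadipocytes, and so no test. Egfr was 393 CPM in control and 306 CPM in stress, Errfi1 978 and 738 CPM, Spry2 178 and 141 CPM, and Spry1 70.7 and 55.6 CPM. Hbegf was 27.2 and 32.8 CPM, Dusp6 32.8 and 36.8 CPM, Dusp4 12.5 and 10.9 CPM, Spry4 29.1 and 27.2 CPM, Areg 4.97 and 4.76 CPM, and Ereg 2.94 and 1.65 CPM. The log2 ratios of stress to control ran from -0.80 for Ereg, with an exact 95% binomial interval of -1.46 to -0.24 that covers counting error only, to 0.27 for Hbegf (0.11 to 0.42). None of the 10 genes was past 2-fold, and 2.41% of the 9480 genes at 10 CPM or more in either library were.

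Diet was compared in preadipocytes with early life treatment as a covariate, 2 low-fat libraries against the high-fat ones. None of the 10 genes and none of 18468 tested was called (edgeR, 0% called, 2360 at an unadjusted p under 0.05, 422 by DESeq2, none of the 10 among them). Ereg was 3.95-fold higher on the high-fat diet (1.98 ± 0.96 on the log2 scale, edgeR adjusted p = 0.420). Its value rested on the low-fat libraries, at 3.18 without the control one, 1.11 without the stress one, and 1.05 by limma on log2(FPKM + 1). Dusp4 was at 0.92 ± 0.48 and Areg at 0.89 ± 0.83. Without the near-identical libraries Areg was at 0.26 ± 0.31. The other 7 genes lay between -0.20 and 0.44, with Egfr at 0.01 ± 0.34 and Errfi1 at 0.13 ± 0.26. In CPM no gene of the 10 had the diets apart without overlap, against 7.43% of all genes higher and 8.66% lower on the high-fat diet in that way. In FPKM Dusp4 was higher without overlap, by the narrow gap of 4.54 FPKM in the low-fat control library to 4.55 FPKM in stress library 3.

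For each gene the most similar profiles among 11279 genes were sought by Pearson's r of log2 CPM over 15 libraries, the near-identical pair averaged. The libraries fall into 2 fractions, which by itself makes such values high, so that they are a description only. Egfr was most like the collagen gene Col5a1 and the procollagen protease gene Adamts2 (both r = 0.98). Errfi1 was most like Nr4a1, an immediate early nuclear receptor gene on the dissociation list, and Sphk1, sphingosine kinase (both r = 0.98). Spry2 was closest to Gata6, a transcription factor gene, and Nbl1, a BMP antagonist gene (both r = 0.98), and Spry1 to Tpst1 and Armcx2 (both r = 0.97).

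The ligands had lower values and other partners. Hbegf was closest to Patj, a gene of epithelial polarity (r = 0.90), and the epithelial keratin gene Krt7 (r = 0.88). Areg was closest to the ERK target Ier3 (r = 0.87) and to Patj (r = 0.85). Ereg was closest to Mmp3, stromelysin (r = 0.90), and Timp1, a metalloproteinase inhibitor gene (r = 0.89). Dusp4 was closest to Tpst2 (r = 0.93) and Asb6 (r = 0.92), Dusp6 to Kbtbd11 (r = 0.85) and Tal1 (r = 0.82), and Spry4 to Cyb5d1 (r = 0.93) and Acta1 (r = 0.92).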

How the data were processed

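For 16 bulk libraries the authors deposited a table of raw gene counts and one of FPKM values, scaled by gene length and depth. Per the submitters' processing notes, STAR 2.6.1d, edgeR 3.24.3 and DESeq2 1.20.0 were used, and the builds given are GRCm38 and mm10. How reads were counted, with which strand setting and annotation, is not given in the sources used here.

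The 10 genes, the pathway and marker lists and the tests were chosen with earlier results of these data known. Counts were tested by the quasi-likelihood F test of edgeR 4.0.16 (R 4.3.3) after filterByExpr, with TMM factors and a robust fit. The threshold was a Benjamini-Hochberg adjusted p of 0.05 over all genes tested. Control high-fat preadipocyte libraries 1 and 3 were summed into 1 library in the fits, except in alternatives that kept them separate. A standard error is the log2 fold change divided by the square root of its F value. The fraction and diet fits had early life treatment as a covariate, the treatment fits used only the groups compared, and the interaction fit used all high-fat groups. CPM values use TMM factors over all 16 libraries. The comparison of 2 low-fat libraries is a log2 ratio with a prior count of 2. Precision is limited by 14182130 to 23368821 counts a library and by 3 or 4 libraries a high-fat group and 1 a low-fat group.

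The scripts were tested on simulated data. Named were all 10 genes, up to 4 other genes of each pathway list with the largest called fraction change, and the 2 genes most like each of the 10. Marker lists are given by counts and sums, with 3 markers of highest mean. Alternatives were DESeq2 1.42.0, RLE size factors, other filters, limma 3.58.1 on log2(FPKM + 1) and log2(FPKM + 0.1), a replicate block, and fits without single libraries or with the pair kept separate. An alternative diet fit without 4 libraries was chosen after seeing the data. Promoters come from RefSeq (GRCm38.p6).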

Additional observations from a re-analysis of the deposited data

Results flagged for a closer look

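Dusp6, the gene of a cytoplasmic ERK phosphatase, had early life stress effects of opposite sign in the fractions. On the high-fat diet all 4 stress preadipocyte libraries lay below all control preadipocyte libraries, and all 3 stress mature adipocyte libraries lay above all 3 control ones. The nearest preadipocyte libraries were at 38.7 CPM in stress and 39.99 CPM in control. Without the near-identical libraries the preadipocyte effect was -0.35 on the log2 scale. The low-fat preadipocyte libraries went the other way, with 32.8 CPM in control and 36.8 CPM in stress. The test of the difference itself, edgeR's interaction term, gave 1.63 ± 0.41 on the log2 scale with an adjusted p of 0.934, so that it did not pass over all genes. No value of the 10 genes stood apart from the rest of its group by Dixon's criterion in the 4 stress preadipocyte libraries. The criterion was applied to that group only, so that outlying values in the other groups were not looked for.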

How the results depend on the processing

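For fraction, each alternative on both treatments called 9 of the 10 genes. Control libraries alone called 5998 genes of the whole table, and Dusp6, uncalled on both treatments, was at 0.044 with no low-count filter, 0.83 in stress libraries alone, 0.46 without control mature adipocyte libraries 1 and 3, and -0.15 to 0.21 leaving out 1 library. For treatment, DESeq2 called 4 genes in preadipocytes, 9 in mature adipocytes and 3 for the interaction, and in mature adipocytes 51 passed with no low-count filter and 0 to 9 leaving out 1 library, the 9 without control library 2. None was among the 10. For diet, DESeq2 called 422 genes, no filter and limma on log2(FPKM + 0.1) 1 each, leaving out 1 library 0 to 1 (1 without high-fat control library 4), and the added fit without the near-identical pair and stress libraries 3 and 4 called 2. Dusp6 turned sign for fraction and was called in the stress libraries alone. Otherwise signs turned only in genes called in neither the main fit nor the alternative. For diet these were Egfr (-0.094 with the pair kept separate, -0.054 and -0.058 by limma on log2(FPKM + 1) and log2(FPKM + 0.1), -0.29 to 0.32 leaving out 1 library), Dusp6 (-0.051 in the added fit, -0.24 to 0.71), Hbegf (-0.13 to 1.22) and Spry2 (0.30 in the added fit, -0.22 to 0.081). For treatment in preadipocytes they were Dusp4 (-0.74 to 0.21), Spry4 (-0.15 to 0.19) and Spry1 (0.20 without stress libraries 3 and 4, -0.21 to 0.18), and in mature adipocytes Spry1 (-0.14 to 0.59). For the interaction they were Areg (-0.40 by limma on log2(FPKM + 0.1), -0.92 to 1.13), Spry1 (-0.072 to 0.68), Spry2 (-0.22 to 0.47) and Spry4 (-0.010 to 0.37). The cause was not tested. Whether replicate numbers pair the libraries could not be decided with so few libraries a group. Correlations of deviations between libraries of the same number ran from -0.50 to 0.55. The highest, for replicate 2 between treatments in preadipocytes, stood against at most 0.020 with another number. The lowest, for replicate 2 between treatments in mature adipocytes, stood against up to 0.47. With a replicate block 9 of the 10 genes and 9284 genes in all were called for fraction, 1 gene for treatment in preadipocytes, 0 in mature adipocytes and 0 for the interaction, with Spry4 at -0.10. The block fits with preadipocytes kept the near-identical libraries as separate samples. Depth limited Ereg and Areg in mature adipocytes, at 3 to 70 reads a library.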
